A study of Mus musculus with 12 samples.

Results

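The genes described here encode the enzymes that place and remove methyl groups on lysines of histones, chosen by name as the RefSeq protein-coding genes of mouse whose symbols start with Kdm, Kmt or Setd followed by a digit or the letter b. The rule gave 36 genes among 21896 with a position (18 with Kdm, 8 with Kmt and 10 with Setd), and each was measured over its span with 10 kb on each side. Kdm5d lies on the Y chromosome, which none of the lists covers, so 35 genes could be measured, beside 21627 protein-coding genes on the same 20 chromosomes. The name fits most of the 35 but not all. Setd3 is known for methylating a histidine of actin and Setd6 for methylating a subunit of NF-kappaB, and whether Kmt2e and Setd5 act as enzymes is disputed.

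Chromatin immunoprecipitation sequencing (ChIP-seq) of 12 mouse samples in 7 groups mapped acetylation of histone H3 at lysine 27 (H3K27ac), found at active promoters and enhancers, and the zinc-finger transcription factor KLF4. V6.5 embryonic stem cells (ESCs) carried the lentiviral c3GIC9 vector, in which a doxycycline-responsive TRE3G promoter drives Cas9-P2A-GFP, with guides that the protocol gives as either for Klf4 or for Klf2, Klf4 and Klf5 together. H3K27ac was measured in 2 samples at 0 h of doxycycline, labelled wild type, and 2 at 24 h. Both came from picked clones that carry the vector, whose knockout the protocol says was checked by western blot. The titles of the 24 h samples name both TKO and KLF4 KO, so the targeted genes are not settled by them. Induced pluripotent stem cells (iPSCs), reprogrammed somatic cells, gave 2 KLF4 and 2 H3K27ac samples, and 4 inputs completed the set. The labels place all cells in 2i, a medium with inhibitors of MEK and GSK3, and the growth protocol names irradiated feeder cells.

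Each of the 4 ChIP groups was deposited as 1 list, so there is no replicate error, no test, and read depth is unknown. The ESC lists give 10 kb bins with an H3K27ac value in arbitrary units, and a second whole number per bin, called the bin score here, whose meaning the lists do not state. Values at 24 h were lower across the genome, with a median ratio of 0.854 over the 22739 bins valued at both times (log2 -0.23). How the lists were scaled is not stated, and its part in this ratio was not tested. A relative value is therefore a bin's log2 ratio of 24 h to 0 h minus this median, averaged over a gene's bins, and its SD is over bins of 1 gene, not over cultures. Some neighbouring bins hold the same pair of values, and each was counted as 1 bin. Pou5f1, Nanog, Sox2 and Esrrb, which mark pluripotent cells, had highest values of 8.73 to 29.7 at 0 h and 6.45 to 24.2 at 24 h, and all had iPSC H3K27ac peaks. Of the fibroblast markers Col1a1, Col1a2, Postn and Thy1, only Col1a1 had a value (3.35 at 0 h and 2.59 at 24 h), and it had 1 iPSC H3K27ac peak and 2 KLF4 peaks.

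Methylation of different lysines marks different chromatin. Methylated lysine 4 of H3 goes with promoters and enhancers, and is placed by the enzymes of COMPASS-type complexes and removed by the KDM1 and KDM5 proteins. Methylated lysine 9 goes with silent chromatin, lysine 27 with Polycomb silencing, lysine 36 with transcribed gene bodies and lysine 20 of H4 with heterochromatin and replication. In pluripotent cells, KDM1A and SETDB1 are known for restraining developmental genes and retroelements.

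Most of these genes had some acetylation in their span in both cell types. Of the 35, 32 had at least 1 bin valued at both times, against 52.0% of all genes and 58.2% of genes of equal span, and 34 had an iPSC H3K27ac peak, against 60.4% of all genes and 70.4% of genes of equal span. The exception was Kdm1b, a demethylase of lysine 4, with no iPSC H3K27ac peak in its span. When bins that touch another protein-coding gene were left out, 23 of the 35 had a bin valued at both times. Of all 21627 genes, 7340 did. A KLF4 peak of iPSCs lay in 28 of the 35, against 53.2% of all genes, 63.3% of genes of equal span and, for the 32 with values, 74.8% of genes of equal level. Of those 32 genes, 26 (81.3%) had one. Each share comes from 1 list.

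Of the 27 genes with a promoter in the table used, the 6 promoters below met the widest KLF4 peaks. They are given 1 per gene in order of peak width, and let the KLF4 data be read on the sequence itself. The peak covered all 250 bases for Kmt2a, Kmt5b and Kdm1b, 244 for Kdm2b, 113 for Kdm3a and 106 for Setd2. Most of the marked matches of Setd2, and the later match of Kdm3a, lie outside the peak. Each run is the 250 bases before an annotated start, 5′ to 3′ on the gene's strand, from RefSeq for GRCm38.p6. Capitals mark GGGNGTGG, a core of the KLF4 motif, and GGGCGG, the GC box of the SP and KLF family, on either strand. A match on the other strand stands as its reverse complement.
Kmt2a, chr9:44881290-44881539, minus strand: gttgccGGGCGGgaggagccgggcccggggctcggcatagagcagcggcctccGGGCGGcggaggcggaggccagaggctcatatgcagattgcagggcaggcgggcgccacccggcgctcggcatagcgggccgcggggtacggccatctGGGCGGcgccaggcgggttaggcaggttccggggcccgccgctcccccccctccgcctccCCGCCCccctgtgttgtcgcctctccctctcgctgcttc
Setd2, chr9:110532347-110532596, plus strand: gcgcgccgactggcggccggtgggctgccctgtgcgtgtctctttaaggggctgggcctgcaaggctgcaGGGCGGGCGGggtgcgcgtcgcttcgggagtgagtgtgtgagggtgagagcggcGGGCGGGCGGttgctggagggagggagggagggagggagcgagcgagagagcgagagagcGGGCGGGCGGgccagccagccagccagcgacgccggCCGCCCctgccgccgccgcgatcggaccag
Kmt5b, chr19:3767639-3767888, plus strand: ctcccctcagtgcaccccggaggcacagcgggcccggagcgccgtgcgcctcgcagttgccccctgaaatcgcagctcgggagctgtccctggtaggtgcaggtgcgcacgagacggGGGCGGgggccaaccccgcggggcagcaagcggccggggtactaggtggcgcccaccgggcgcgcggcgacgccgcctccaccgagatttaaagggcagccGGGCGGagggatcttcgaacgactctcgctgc
Kdm3a, chr6:71632918-71633167, minus strand: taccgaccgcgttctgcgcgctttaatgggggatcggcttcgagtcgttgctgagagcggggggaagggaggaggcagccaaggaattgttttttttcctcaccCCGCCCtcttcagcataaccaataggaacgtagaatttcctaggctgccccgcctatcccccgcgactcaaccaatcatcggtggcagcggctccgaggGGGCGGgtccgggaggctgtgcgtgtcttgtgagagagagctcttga
Kdm1b, chr13:47043249-47043498, plus strand: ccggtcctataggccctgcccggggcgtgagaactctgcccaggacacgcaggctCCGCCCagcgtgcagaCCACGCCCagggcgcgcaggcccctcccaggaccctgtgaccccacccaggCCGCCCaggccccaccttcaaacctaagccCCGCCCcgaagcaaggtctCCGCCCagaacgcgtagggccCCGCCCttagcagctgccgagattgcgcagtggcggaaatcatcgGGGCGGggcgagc
Kdm2b, chr5:122900351-122900600, minus strand: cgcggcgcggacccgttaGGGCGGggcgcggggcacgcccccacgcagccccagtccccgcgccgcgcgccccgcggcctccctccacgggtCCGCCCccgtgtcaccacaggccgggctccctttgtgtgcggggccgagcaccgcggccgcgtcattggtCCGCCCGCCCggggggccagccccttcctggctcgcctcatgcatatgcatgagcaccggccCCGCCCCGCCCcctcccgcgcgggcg

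All 6 stretches are rich in G and C, from 59.6% in Kdm3a to 80.8% in Kdm2b. GGGNGTGG matched once among them, in Kdm1b, beginning 179 bases before the start on the strand opposite to the gene. GGGCGG matched 7 times in Setd2, 6 times each in Kdm1b and Kdm2b, 4 times in Kmt2a and 2 times each in Kmt5b and Kdm3a, and some of these matches overlap each other. The table held 37 windows of 300 bases (250 before to 50 after a start) for 27 of the 35 genes. A KLF4 peak met 13 of the 37, of 11 genes, against 21.2% of the 21044 windows of all protein-coding genes, and an iPSC H3K27ac peak met 27, 73.0%, beside 34.4%. GGGNGTGG was in 7 of 37, against 19.6% of all windows, and in 3 of the 13 that met a KLF4 peak, beside 33.6% of all windows that met one. GGGCGG was in 67.6% of the windows of these genes and 46.7% of all, and in 84.6% and 83.4% of those that met a KLF4 peak. The GC box was added after the sequences had been seen. A match is no sign of binding.

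The change between the times was centred on that of the genome. The median relative value of the 32 genes was 0.03, with quartiles of -0.13 and 0.14, and over all 11239 genes with a value it was 0.02, with quartiles of -0.13 and 0.16. Below 0 were 15 of 32, against 46.7% of all genes. Against genes in the same decile of H3K27ac level, the median difference was 0.005, and 15 of 32 lay below those genes' median. A relative value at least 1.2-fold lower was found for 3 of 32 genes (Kdm4b, Kdm3a and Setd2), against 11.5% of all genes. At least 1.2-fold higher were 4 of 32 (Kdm1b, Setd7, Kmt2a and Kdm2a), against 13.1%. Both shares are near the background. The higher genes had weak H3K27ac: counted from the lowest level, the deciles of Kdm1b, Setd7, Kmt2a and Kdm2a were 2, 1, 3 and 2. Those of Kdm4b, Kdm3a and Setd2 were 7, 6 and 4. Without centring, 13 were lower, against 39.6% of all genes, and 3 higher, against 3.52%, and the medians of the 32 and of all genes were -0.20 and -0.21. Of the 32 genes, 28 had their highest deposited value at 0 h, against 84.5% of all genes, and Kmt2a, Setd7, Kdm1b and Kdm4c had it at 24 h.

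**Figure D1:**
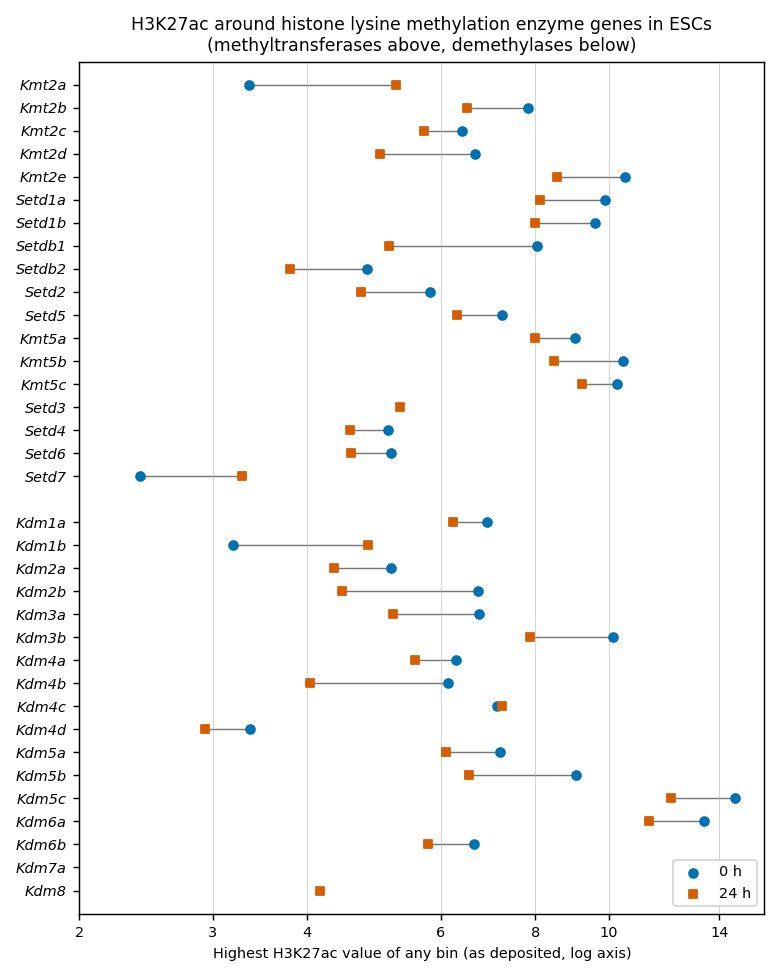
Highest H3K27ac value of any 10 kb bin touching each gene and 10 kb on each side, on a log axis, at 0 h (blue circles) and 24 h (orange squares), as deposited and not scaled between the times. Kdm5c and Kdm6a on the X chromosome have the highest values (14.7 and 13.3 at 0 h), Setd3 and Kdm8 have a value at 24 h alone, and Kdm7a has none.

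The 7 genes of the lysine 4 methyltransferase group (Kmt2a to Kmt2e, Setd1a and Setd1b) had values from near both ends of the range. Kmt2a (chromosome 9, 44803355 to 44881352), the MLL gene of leukaemia translocations, stood apart. Its start lies in the bin from 44880001 to 44890000, which was not listed at 0 h and had a value of 5.24 at 24 h. A bin inside the gene, from 44860001 to 44870000, had 3.35 at 0 h and 4.21 at 24 h, which gives Kmt2a a relative value of 0.56 from that bin alone, and 0.14 over 2 bins with 25 kb flanks. A further bin, from 44830001 to 44840000, had 2.71 at 0 h and was not listed at 24 h. A bin that is not listed was not shown to lack acetylation.

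Kmt2e (chromosome 5, 23433036 to 23504235) was the lowest of that group, at -0.25 (SD 0.26 over 2 bins). The bin holding its low end had 10.5 at 0 h and 8.55 at 24 h, and the bin before it 5.07 and 3.20. Kmt2e was past 1.2-fold with 25 kb flanks (-0.37) and with centring on the median of genes (-0.27), and without flanks it was at -0.07. Kmt2d (chromosome 15, 98831669 to 98874077), which places single methyl groups at enhancers, had a relative value of -0.13 (SD 0.29 over 4 bins). Its start bin had 6.66 at 0 h and 4.98 at 24 h, and the flanking bin from 98820001 to 98830000, in Prkag1, had 3.90 and 2.37. Without flanks Kmt2d was at 0.0029. The related Kmt2c was at -0.06 (SD 0.21 over 3 bins) and Kmt2b at -0.03 (SD 0.12 over 4 bins). Each is within its own spread over bins.

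Setd1a and Setd1b encode catalytic subunits that place trimethylation at promoters. Setd1a (chromosome 7, 127777389 to 127800122) had a relative value of 0.19 (SD 0.18 over 4 bins). Its start bin was the strongest and had 9.88 at 0 h and 8.13 at 24 h, a relative value of -0.06. Setd1b was at 0.04 (SD 0.13 over 3 bins), close to the median of genes of equal level and at -0.04 with the median over its bins, with 9.604 at 0 h and 7.998 at 24 h shared by the bin holding its low end and the bin before it.

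The methyltransferases of lysine 9 in the set were both below 0. Setdb1 (chromosome 3, 95323525 to 95357202), which works with KRAB zinc-finger proteins and TRIM28 on retroelements, had a relative value of -0.26 (SD 0.33 over 4 bins). The lowest bin, from 95340001 to 95350000, had 8.04 at 0 h and 4.13 at 24 h (-0.74), and the bin of its start had 2.64 and 1.96 (-0.20). Setdb1 was past 1.2-fold without flanks (-0.30) and with centring on the median of genes (-0.27). Setdb2 rested on 1 bin, shared with Cab39l and Gm45935, with 4.80 at 0 h and 3.80 at 24 h (-0.11), and with 25 kb flanks it was at -0.38.

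Among enzymes linked to lysine 36, Setd2 (chromosome 9, 110532500 to 110618633), the trimethylating enzyme of transcribed gene bodies, was at -0.27 (SD 0.37 over 4 bins). Its start bin had 5.81 at 0 h and 4.43 at 24 h (-0.16), and the bin at 110610001 near the other end had 5.38 and 4.72 (0.04). The lowest bin, with 4.41 and 2.15 (-0.81), lies outside the gene at Nradd and Nbeal2. Without flanks Setd2 had a relative value of -0.06 over 2 bins, short of 1.2-fold. Setd5 (chromosome 6, 113077262 to 113153432), a SET-domain gene mutated in intellectual disability, was at 0.13 (SD 0.34 over 6 bins). The pair of bins around its low end had 7.22 at 0 h and 6.31 at 24 h, the next pair 5.06 and 4.73, and the bin from 113110001 to 113120000 had 2.19 and 3.15 (0.75). Bins of Setd5 at 113060001 and 113120001 had values at 24 h alone, of 2.43 and 2.23.

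Genes for the enzymes of lysine 20 of H4 lay on both sides of 0, all within 1.2-fold. Kmt5a, which adds the first methyl group and acts in the cell cycle, was at 0.10 (SD 0.30 over 3 bins), and the bin from 124460001 to 124470000 had a value (2.23) at 24 h alone. Kmt5b, which adds further methyl groups, was at -0.19 (SD 0.16 over 2 bins). It was at -0.08 without flanks and at -0.03 with 25 kb flanks. Its start bin had 10.5 at 0 h and 8.46 at 24 h, and the bin before it 6.71 and 4.66. Kmt5c, the close relative of Kmt5b, was at 0.16 (SD 0.22 over 3 bins), with 4.10 and 3.52 in its own start bin. Without flanks Kmt5c was at 0.0068. Its strongest bin (10.3 and 9.22) lies at Cox6b2 and Fam71e2.

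The other SET-domain genes had few bins. Setd7 (chromosome 3, 51515318 to 51560823), which methylates lysine 4 of H3 and many other proteins, had 1 bin with 2.41 at 0 h and 3.28 at 24 h, a relative value of 0.67. Its start bin was listed at both times without a value. Setd4 was at -0.19 (SD 0.56 over 3 bins, from -0.72 to 0.39), and without flanks at -0.48, past 1.2-fold, and Setd6 was at 0.12 (SD 0.09 over 2 bins). Setd3 (chromosome 12, 108106431 to 108179345) had no bin listed at 0 h and 4 at 24 h. The bin of its start and the next one, at Ccnk, both had 5.30 at 24 h, and the bin from 108150001 to 108160000 had 3.67.

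**Figure D2:**
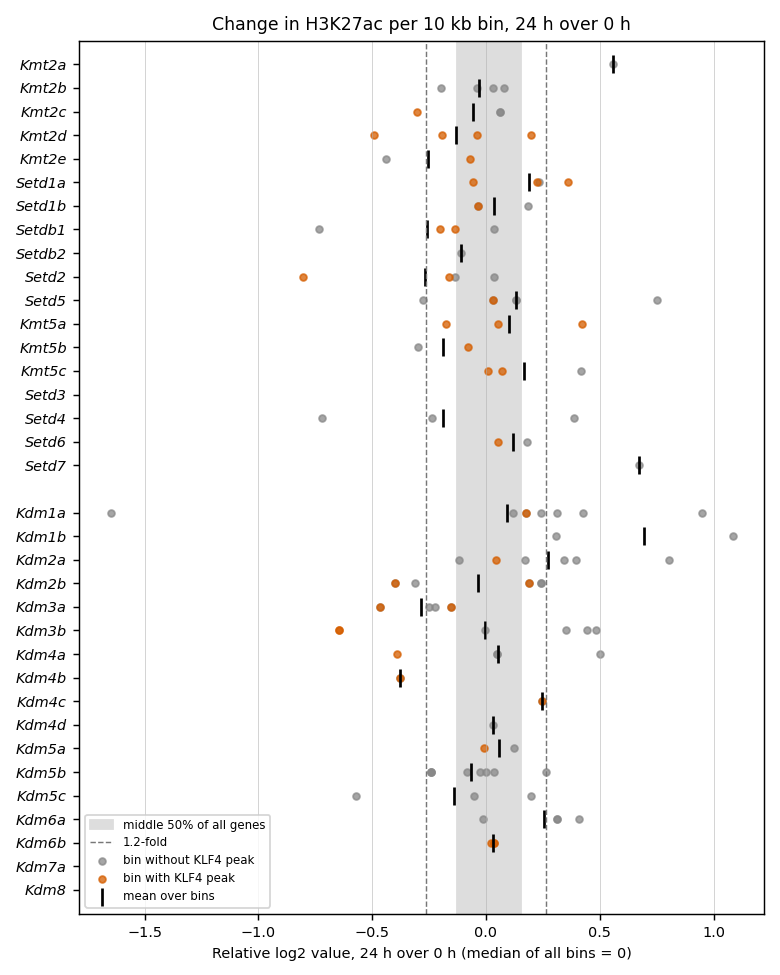
Relative log2 value of each 10 kb bin, 24 h over 0 h, with bins holding an iPSC KLF4 peak in orange, other bins in grey, the mean over a gene's bins as a black bar, the middle 50% of all genes shaded and 1.2-fold dashed. Most gene means sit in or near the shaded band, single bins reach from -1.65 (beside Kdm1a) to 1.09 (beside Kdm1b), and without centring every point would move left by 0.23.

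Of the demethylases, the KDM1 pair acts on lysine 4 with a flavin cofactor. Kdm1a (chromosome 4, 136550533 to 136602787), the LSD1 gene, was acetylated in all of its 8 listed bins at both times. The 2 bins at its start had 6.46 at 0 h and 6.24 at 24 h (0.18), and 5 weaker bins through the gene and past its other end were at 0.12 to 0.95. The bin from 136610001 to 136620000, beyond its start at Tex46, had 6.90 and 1.88, and at -1.65 was the lowest of the 114 bins around all the genes. Kdm1a as a whole was at 0.09 (SD 0.75 over 8 bins). Kdm1b (chromosome 13, 47043373 to 47085279), active in oocytes, had the highest relative value, 0.70 (SD 0.55 over 2 bins), and both bins touch Dek at the far end. One had 3.14 at 0 h and 3.32 at 24 h, and the other, outside Kdm1b, 2.66 and 4.82, so that without flanks the value was 0.31. The start bin of Kdm1b, shared with Tpmt, had 3.19 at 0 h and was not listed at 24 h.

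KDM2 proteins bind unmethylated CpG islands, and KDM2B brings a Polycomb complex there. Kdm2a (chromosome 19, 4316144 to 4398721) was at 0.27 (SD 0.32 over 6 bins), with 5 of 6 bins above 0. It is just past 1.2-fold (0.263), and was not past it without flanks (0.25), with the median over bins (0.26), with centring on the median of genes (0.26) or without centring (0.05). Its bin from 4320001 to 4330000 had 2.13 at 0 h and 3.17 at 24 h (0.80), and the strongest, from 4330001, had 5.15 and 4.06 (-0.12). Kdm2b (chromosome 5, 122870664 to 122989270) was at -0.04 (SD 0.31 over 7 bins with 4 distinct pairs of values). It had 3 bins valued at 0 h alone, the most of any of these genes. They had 4.60 at 122900001, where 2 annotated starts lie, 3.33 at 122930001 and 2.29 at 122960001. The pair of bins from 122910001 to 122930000 had 6.73 at 0 h and 4.36 at 24 h (-0.40), while the upstream start at 122980001 had 4.57 and 4.45 (0.19). The bins around the inner and the upstream starts thus lay on opposite sides of 0.

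KDM3 enzymes remove methyl groups from lysine 9. Kdm3a (chromosome 6, 71588970 to 71632990) was at -0.29 (SD 0.15 over 6 bins), and all 6 bins, with 4 distinct pairs of values, lay below 0. With the median over bins it was at -0.24, short of 1.2-fold. The pair of bins at an internal start had 6.22 at 0 h and 3.85 at 24 h (-0.47), and the pair at the outer start 6.75 and 5.19 (-0.15). Of genes in the same decile of level, 9.08% had a lower relative value. Kdm3b (chromosome 18, 34777008 to 34839370) had a relative value of -0.0038 with bins far on both sides of it (SD 0.53 over 6 bins). The 2 bins at its low end had 10.1 at 0 h and 5.52 at 24 h (-0.65). With 1 bin per run of equal values Kdm3b was at 0.16. The flanking bin at Fam53c had 9.24 and 7.87. Bins further in had 3.53 and 3.85 (0.35), 4.83 and 5.61 (0.44), and 2.28 and 2.72 (0.48).

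Enzymes of the KDM4 family act on lysine 9, and some of them also on lysine 36. Kdm4b (chromosome 17, 56325970 to 56403774) was the lowest gene, at -0.38 from 2 bins that share 1 pair of values, 6.13 at 0 h and 4.04 at 24 h. Both bins touch Uhrf1, which encodes a partner of the maintenance DNA methyltransferase, and the signal of the genes cannot be told apart there. With 25 kb flanks Kdm4b was at -0.26, short of 1.2-fold. Kdm4c was at 0.25, also from 2 bins with 1 shared pair of values, 7.13 at 0 h and 7.22 at 24 h. Of the genes in its own level decile, 5.25% were lower than Kdm4b and 92.5% lower than Kdm4c. Kdm4a was at 0.05 (SD 0.37 over 4 bins) and had 2 bins at 24 h alone, with 5.27 and 3.54, on the St3gal3 side. Kdm4d, with 1 bin of 3.36 and 2.93, was at 0.03.

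The KDM5 family removes di- and trimethylation from lysine 4. Kdm5a (chromosome 6, 120364099 to 120444574) was at 0.06 (SD 0.09 over 2 bins), and the bin of its low end had 7.19 at 0 h and 6.10 at 24 h. Its inner bins at 120370001 and 120400001 had 2.69 and 2.81 at 0 h and no value at 24 h. Kdm5b (chromosome 1, 134560178 to 134632878), highly expressed in ESCs, was at -0.07 (SD 0.18 over 8 bins). The 3 bins around its start had 9.05 at 0 h and 6.55 at 24 h (-0.24), and the bin at 134590001 had 4.92 and 5.04 (0.26). Kdm5c, on the X chromosome, was at -0.14 (SD 0.39 over 3 bins), with 14.7 and 12.1 in its start bin. Its flanking bin at 152280001 was at -0.57, and without flanks Kdm5c was at 0.07.

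KDM6 enzymes remove methyl groups from lysine 27, against Polycomb. Kdm6a, on the X chromosome, was at 0.26 (SD 0.18 over 4 bins with 3 distinct pairs of values). Its start bin had 13.3 at 0 h and 11.3 at 24 h (-0.01), and the 3 bins inside the gene were at 0.31 to 0.41. With the median over bins Kdm6a was past 1.2-fold (0.31). Values on the X chromosome were higher in general. The median over genes of the mean value at 0 h was 7.48 for 320 X-linked genes and 4.85 for 10919 autosomal genes. Kdm6b (chromosome 11, 69398508 to 69420367) was at 0.03 (SD 0.0069 over 3 bins, of which 2 share 1 pair of values), with 5.62 at 0 h and 4.92 at 24 h inside the gene, and the bin of its high end, at 69420001, had 4.83 at 0 h and no value at 24 h. Kdm7a had no value at either time. Kdm8 had no value at 0 h, and at 24 h 4.15 in its start bin and 2.72 at its other end.

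**Figure D3:**
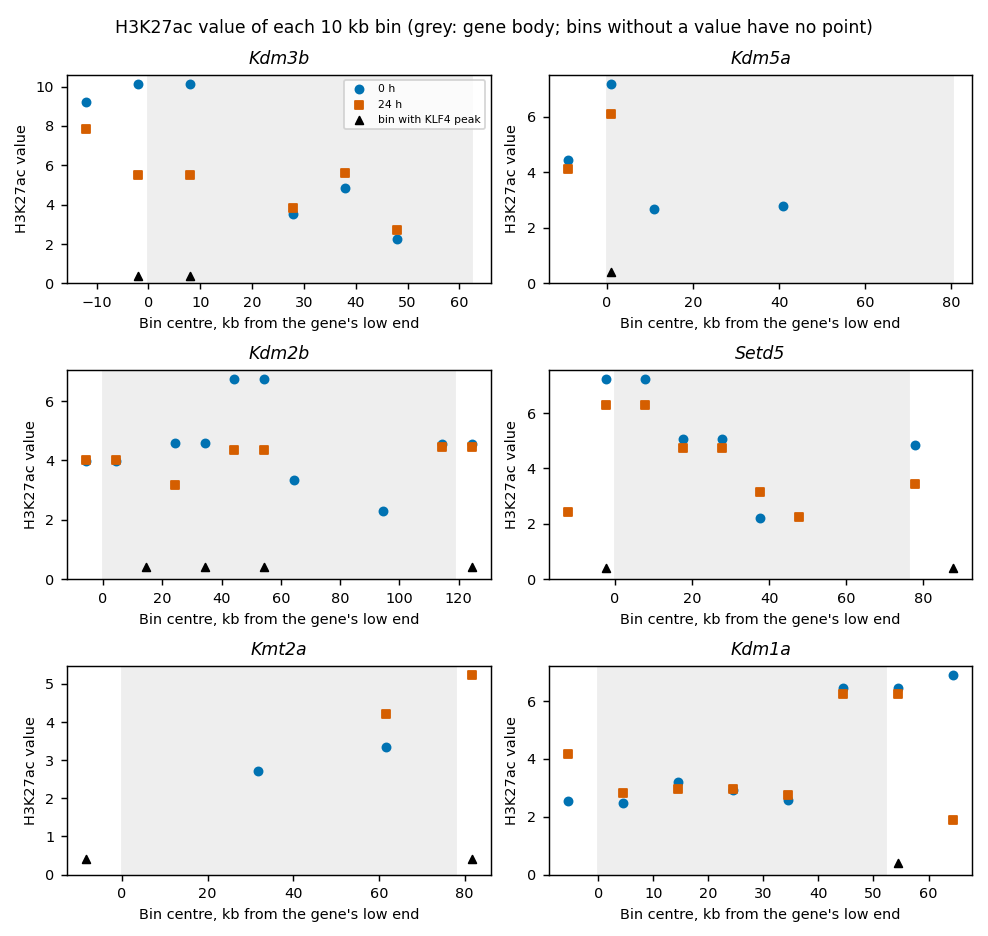
H3K27ac value of each 10 kb bin against the distance of its centre from the gene's end of lower coordinate, in kb, for Kdm3b, Kdm5a, Kdm2b, Setd5, Kmt2a and Kdm1a at 0 h (blue circles) and 24 h (orange squares), with the gene body in grey and triangles under bins with an iPSC KLF4 peak. The 6 genes were chosen after their values were seen; the 2 strong bins at the left of Kdm3b go from 10.1 to 5.52 as deposited while its inner bins are slightly higher at 24 h.

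Bins valued at 1 time only were of both kinds. A bin valued at 24 h alone touched 11 of 35 genes, against 12.3% of all genes and 17.3% of genes of equal span, and a bin valued at 0 h alone touched 7 of 35, against 16.0% and 20.7%. The 11 were Setd3, Kdm8, Kdm4a, Setd5, Kmt2a, Kmt2b, Kmt5a, Kmt5b, Setd6, Kdm4c and Kdm5c, and the 7 were Kdm2b, Kdm5a, Kdm1b, Kdm4c, Kdm5b, Kdm6b and Kmt2a. For Kmt2b the 24 h value was 3.20 in the bin at 30570001, for Kmt5b 2.75 at 3790001, for Setd6 2.43 at 95730001 and for Kdm5c 2.76 at 152260001. Kdm4c had 3.53 at 24 h alone at 74280001 and 3.43 at 0 h alone at 74360001, and Kdm5b had 4.26 at 0 h alone at 134600001. Values at 24 h with none at 0 h were found for 2 of 35 genes (Setd3 and Kdm8), against 2.5% of all genes. By bins, 12.3% of the 130 bins valued at 24 h had no 0 h value, against 11.2% of all bins. Of the 124 valued at 0 h, 8.06% had no 24 h value, against 15.2%. Why a bin has a value or none is not stated for these lists.

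KLF4 peaks of iPSCs around these genes had a median of 1 per gene, as over all genes. The 28 genes held 65 peaks, 34 touching the gene body and 31 in the flanks alone, and 25 touched another gene. Kdm6b and Setd1b had 6 each, Kmt2d 5, and Kdm2b, Kdm3b, Kmt5c and Setd1a 4 each. For Kdm6b, 5 of the 6 touched the gene. For Setd1b none did: all 6 lay at the neighbour Rhof, from 123132433 to 123138737 on chromosome 5, and the widest iPSC H3K27ac peak of the set (6786 bp) ran from 123135666 to 123142451 into the gene. Setd2, Setd5 and Kmt2a had 3 each, 13 genes had 1, and Kdm4d, Kdm5b, Kdm5c, Kdm6a, Kdm7a, Kmt2b and Setdb2 had none. The widest KLF4 peak (875 bp, at percentile 99.4 of the widths of all KLF4 peaks) lay just outside Setd5, from 113075984 to 113076858. Of the 65 peaks, 70.8% met an iPSC H3K27ac peak and 86.2% lay in a bin valued at 0 h in ESCs, beside 48.7% and 59.4% of all 21563 KLF4 peaks. All KLF4 peaks include those far from genes, so the pairs of shares are not matched.

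**Figure D4:**
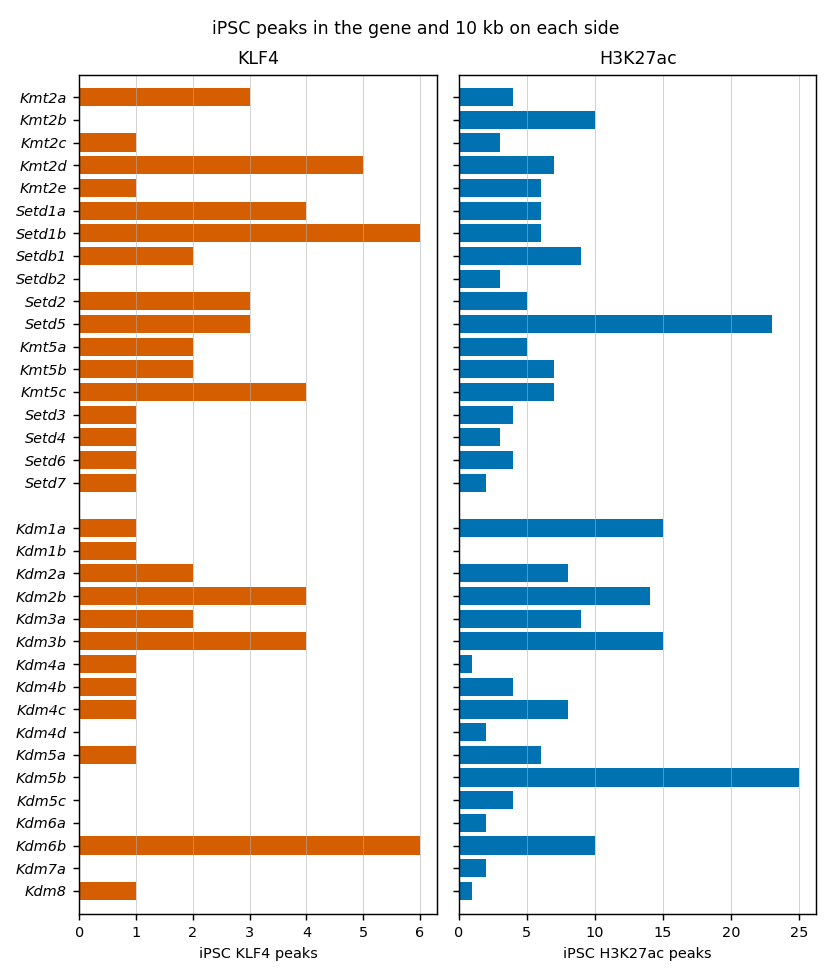
Number of iPSC KLF4 peaks (left, orange) and iPSC H3K27ac peaks (right, blue) that touch each gene or 10 kb on each side. Kdm5b has the most H3K27ac peaks (25) and no KLF4 peak, and Setd1b and Kdm6b have the most KLF4 peaks (6 each).

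iPSC H3K27ac peaks numbered 0 to 25 per gene and 240 in all. Their median was 6, beside 1 over all genes, whose spans were shorter (median 37.3 kb, against 65.9 kb). Kdm5b had 25 and Setd5 23, followed by Kdm1a and Kdm3b with 15 each and Kdm2b with 14. They covered 24.7% of the span of Kdm6b, 21.5% of that of Kdm5b and 20.4% of that of Setd1b. Their median width of 396 bp was beside 405 bp for all 55466 peaks. Kdm5b, with the most peaks and no KLF4 peak in its span, had its highest ESC value, 9.05, in the 3 bins at its start.

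Among starts of the promoter table whose window met a KLF4 peak, 8 bins had a relative value, and Kdm3a gave more than 1 of them. The share of such bins below 0 was not taken over all genes, so their count below 0 is not read as a result. Of the 23 bins around these genes with an annotated start and a relative value, 13 (56.5%) were below 0. Over all bins with an annotated start the share was 52.6%. Of all 37 bins around these genes with a KLF4 peak and a relative value, 21 (56.8%) were below 0, beside 63.4% of all such bins. The KLF4 peak over the start of Kmt2a, 795 bp wide, lay in a bin valued at 24 h alone, and those over the starts of Kdm1b (522 bp) and of the inner Kdm2b start (443 bp) lay in bins valued at 0 h alone. The bin of such a start was below 0 for Setd2 (-0.16), Kmt5b (-0.08), Kdm3a (-0.15 and -0.47), Setdb1 (-0.20), Kmt5a (-0.18) and Setd1a (-0.06) and above it for Setd6 (0.05), and that of Kdm8 had a value at 24 h alone. Kdm5a and Kmt2e have no promoter in the table, and their low ends also lay under a KLF4 peak, in bins at -0.0092 and -0.07. The low end of Setd5, whose start in the table is further in at 113104935, lay under a KLF4 peak too, in a bin at 0.03.

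Among the 114 bins around these genes with values at both times, the 37 with a KLF4 peak had a median relative value of -0.04, and the 77 without one 0.06. The same medians over all bins were -0.08 for 8857 and 0.06 for 13882. Bins with KLF4 were also stronger, with a median 0 h value of 6.22 against 4.80, as over all bins, with 5.79 against 4.41. Within genes that had both kinds of bin, the mean of KLF4 bins was lower than that of the others in 13 of 19, against 63.9% of all such genes, with a median difference of -0.11. The gap was widest in Kdm3b (-0.65 against 0.32), Kdm4a (-0.39 against 0.20) and Setd2 (-0.48 against -0.05), and it was opposite in Kmt2e (-0.07 against -0.44), Kmt5b, Setdb1 and Kdm1a. Kdm4b and Kdm4c showed none, since their bins share a value. The part of bin level in this difference was not tested, and 43 of the 114 bins touch another gene.

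The bin score added a second view of the same bins. Over the 35 genes it summed to 1031 at 0 h and 960 at 24 h, so that 48.2% was in the 24 h list, beside 47.5% over all bins. Among the 30 genes with a total of at least 10, the ratio of the sums, relative to that of all bins, was at least 1.2-fold lower in 5, against 22.0% of all genes, and at least 1.2-fold higher in 5, against 26.2%. The 5 lower were Kdm5a (37 at 0 h and 20 at 24 h), Kdm1b (13 and 8), Kdm6b (21 and 13), Kmt2a (13 and 9) and Kdm2b (85 and 64). Kdm2b lies at the limit, with a relative ratio of 0.833. The 5 higher were Kmt5a (13 and 19), Setd4 (6 and 8), Kdm4a (18 and 22), Kdm2a (61 and 71) and Setd5 (69 and 77).

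For Kdm5a the score differed inside the gene. The bin at 120370001 had 7 at 0 h and 2 at 24 h, the bin at 120400001 had 7 and 1, and 3 bins from 120410001 on were listed at 0 h only. The bin at its low end had 3 and 4. Kdm2b had lower scores at 122930001 (7 and 2), 122960001 (10 and 7) and 122990001 (11 and 8). Kmt5b and Setd5 had high sums at both times, 74 and 77 and 69 and 77, with 22 and 19 in the start bin of Kmt5b. Kdm1b had the highest relative value and a 24 h share of the score of 38.1%, and Kdm3a, low in H3K27ac, had scores of 39 and 36.

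**Figure D5:**
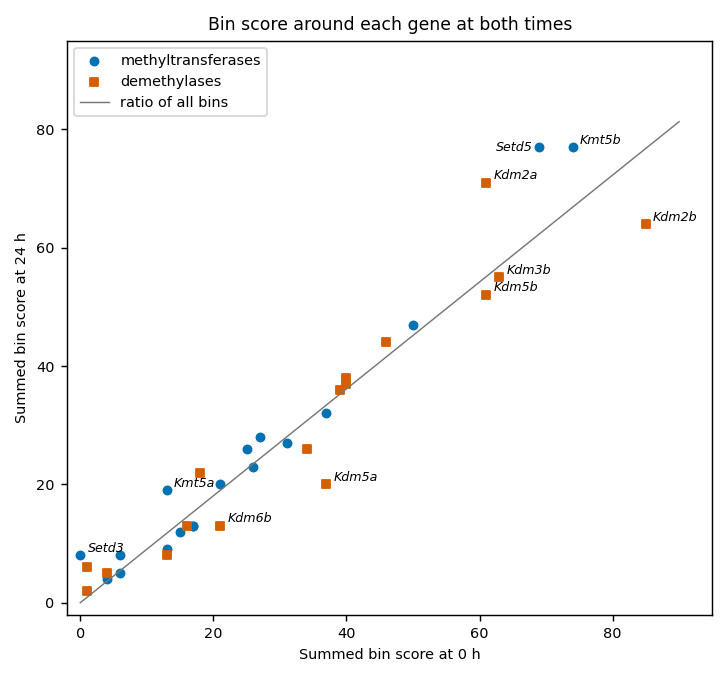
Summed bin score of each gene and 10 kb on each side at 0 h (x axis) and 24 h (y axis), for methyltransferase symbols (blue circles) and demethylase symbols (orange squares), with the ratio of all bins as a line. Kdm5a (37 and 20) and Kdm2b (85 and 64) lie furthest below the line, and Kdm2a (61 and 71), Setd5 and Kmt5b lie above it.

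By direction of the reaction, the 17 methyltransferase genes with a value had a median relative value of -0.03 and the 15 demethylase genes 0.03. The groups span -0.27 to 0.67 and -0.38 to 0.70 and so overlap almost entirely. The lysine 4 methyltransferase group of 7 had a median of -0.03 and 20 KLF4 peaks in all, and the KDM5 group of 3 with a value had -0.07 and 1 KLF4 peak.

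Most partners and enzymes under other symbols were within 1.2-fold, as were most of all genes, of which 11.5% were lower and 13.1% higher. Of 23 lysine methylation enzymes whose symbols the rule does not take, 18 had a value, with a median of 0.08, none at least 1.2-fold lower and 1 higher (Smyd2, 0.31). Nsd1, which methylates lysine 36, was at 0.20 (SD 0.16 over 13 bins), with scores of 134 and 150, and Ehmt2, the G9a gene, at -0.15 (SD 0.17 over 4 bins). Of 13 COMPASS subunits, 12 had a value, with a median of 0.03, 2 lower and none higher. The lower were Wdr5 at -0.28 (SD 0.18 over 4 bins) and Men1 at -0.33 from 1 bin. The 9 partners of lysine 9 methylation had a median of 0.04 with none past 1.2-fold, among them Trim28 at -0.05 (SD 0.05 over 4 bins).

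The CoREST group, partners of KDM1A, had the lowest median of the partner lists, -0.08 over 8 of 10 genes. Past 1.2-fold, 1 was lower and 1 higher, against 11.5% and 13.1% of all genes. Gse1 was at -0.27 (SD 0.26 over 11 bins), had 19 KLF4 peaks and 5 bins valued at 0 h alone, and its score was 81 at 0 h and 44 at 24 h. Hdac1 was at -0.25 (SD 0.24 over 6 bins), with scores of 40 and 26, and Hdac2 at -0.19 (SD 0.36 over 5 bins), with 20 and 15. Rcor1, the CoREST gene itself, was at 0.48 (SD 0.18 over 3 bins). In the list as a whole 42.7% of the score was in the 24 h list, beside 47.5% over all bins. Kdm1a, with scores of 46 and 44, was at 48.9%.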

How the data were processed

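ChIP-seq lists for mm10 were used as the authors deposited them. The submitters' processing notes name Bowtie2, SAMtools, bedtools and MACS2, and for how the 2 samples of a group were combined or scaled, nothing is stated in the labels. Each ESC list holds an H3K27ac signal per 10 kb bin, deposited by the authors in arbitrary units, and the bin score, a whole number deposited without a stated meaning. The other 5 columns of values in each ESC list were not used, and the iPSC lists hold peak positions. No depth is given.

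Bins and peaks were joined to RefSeq genes with 10 kb flanks by an overlap of at least 1 bp (python 3.11.15, pandas 2.3.3, numpy 2.4.6). The calculation was checked on simulated data, with shifts larger than 1.2-fold and little noise in genes of 3 or more bins. That check does not show how well changes of the size reported here are found. Level groups are deciles of the mean log2 value. Score ratios needed a total of 10 and were divided by the ratio of all bins, 0.904. Of the 36 genes, 28 had a RefSeq promoter (GRCm38.p6) in the table used. Every gene of the set is named. Fuller values went to the 6 lowest and 6 highest among genes whose relative value rests on 2 or more bins, the 6 with the largest score differences each way, the 6 with the most KLF4 peaks and those with a bin valued at 1 time only. Genes, lists and rules were chosen with earlier results of these data known, and the GC box and the comparison of KLF4 peaks at equal level after seeing the data. Alternatives varied flanks, centring, averaging, overlap with other genes, bin minimum, fold, level groups and peak width.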

Additional observations from a re-analysis of the deposited data

How the results depend on the processing

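The median relative value of the 32 genes (0.03) was -0.20 without centring, beside -0.21 for all genes, and -0.0038 over the 21 genes whose value rests on 3 or more bins, beside 0.02 for all such genes. It stayed above 0 under the other 7 settings tried. The count at least 1.2-fold lower (3) was 1 with the median over bins (11.6% of all genes), 13 without centring (39.6%), 5 with centring on the median of genes (12.7%), 8 at 1.1-fold (23.5%) and 0 at 1.5-fold (2.14%). The count higher (4) was 1 with 3 or more bins (10.4% of all such genes), 8 at 1.1-fold (27.9%) and 2 at 1.5-fold (2.12%). The smaller counts with 3 or more bins come with fewer genes, and the cause of the other differences was not tested. The count of genes with a KLF4 peak (28 of 35) was 23 without flanks, 31 with 25 kb flanks and 21 with the wider peaks of the list alone. The count with an iPSC H3K27ac peak (34) was 32 to 35. Shares of all genes with a peak were not taken at these settings. Whether the difference from all genes holds under them was therefore not tested. The 24 h share of the score (48.2%) was 47.9% to 48.5%. The KLF4 comparison at equal level was chosen after seeing the data. No gene past 1.2-fold changed sign under any alternative run, but Kdm2a, Kdm3a, Kdm4b, Kmt2a and Setd2 were each short of it under at least 1. No paired analysis was possible because each group was deposited as 1 list with no values per replicate, and leaving out a replicate could not be run for the same reason. Depth is unknown, so no limit from counting error can be given.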
